A study of Aspergillus niger with 6 samples.

Results

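The genes described here were highest at the start of a sampled citrate fermentation of Aspergillus niger and lower at the later times, with a first step that stayed under 4-fold. They were chosen by measured expression at an air supply of 3 vvm, where 1 vvm is a broth volume of air each minute. Each gene had its highest FPKM of 5 times at 6 h, had at least 10 FPKM there, spanned at least 2 units of log2(FPKM + 1), and was less than 2 units lower at 12 h. FPKM is the number of sequenced fragments scaled to transcript length and library size. In all, 165 of the 9953 genes listed for the time course met this rule. Another 106 genes met the other conditions but had a first step of 2 units or more, and they are called steep early genes here.

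The study sampled pellets of strain H915-1 at 6, 12, 24, 36 and 48 h with 3 vvm, and at 48 h with 1.5 vvm. All 6 groups share the strain, and 1 RNA-seq library was made for each, so differences between libraries have no replicate check and carry no p-value. Libraries held between 5062817 and 6708034 fragments. The 1.5 vvm library stood apart at the low end: 442 genes that stayed under 0.5 FPKM in each of the other libraries reached a median of 1.57 FPKM there, from 13 fragments. The main 2-fold counts for that library against 48, 24 and 6 h at 3 vvm are therefore also given with 1.57 FPKM taken off each of its values. Its counts by class, by rebound, by nearest time and for other sets of genes are given as deposited only.

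Aspergillus niger is a filamentous fungus used to make citric acid. In submerged culture its spores swell, germinate and grow into pellets, and the mycelium then secretes citrate while the sugar lasts. Oxygen supply to the pellets is known to affect the process. The RefSeq table of assembly ASM285v2 lists 14404 genes, and 0 of the identifiers used here match one, so genes are named by the authors' contig and position and no function is given to any of them.

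The working description of these genes as slow to decline held for part of them. At 12 h, 101 of the 165 genes were already at 50% of their 6 h FPKM or less, 54 first reached that level at 24 h and 10 at 36 h. On the log2 scale, the largest single step down came at 12 h in 75 genes, at 24 h in 56, at 36 h in 25 and at 48 h in 9. The 165 genes are called graded early genes here. The name stands only for a first step under 2 log2 units, and not for a kind of course.

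Median levels of the graded early genes were 71.9, 34.3, 18.2, 11.4 and 10.6 FPKM over the 5 times from 6 to 48 h. The median share of the 6 h level that was left was 45.5% at 12 h, then 24.3%, 18.6% and 16.7% at the 3 later times. Most of the difference was present by 24 h, and the medians of 36 and 48 h lay close together. Single genes kept between 0% and 68.7% at 48 h, with 43 genes under 10% and 7 at 50% or more. FPKM is relative to the rest of the library, so less transcript per cell and fewer cells that carry it cannot be told apart.

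Counts of genes at least 2-fold apart on the log2(FPKM + 1) scale followed the same course. The rule used these libraries, so the counts are descriptions and nothing is read from the shares of all genes beside them. Relative to 6 h, 98 of the 165 genes were 2-fold or more lower at 12 h (7.10% of all genes), 153 at 24 h (9.62%), 162 at 36 h (11.4%) and 157 at 48 h (12.0%). Relative to the time before, 66 were 2-fold or more lower at 24 h (4.24% of all genes) and 0 were higher (5.42%). At 36 h, 36 of 163 kept were lower (3.12%) and 8 higher (5.62%) than at 24 h. At 48 h, 12 of 158 kept were lower (2.02%) and 9 higher (2.76%) than at 36 h, so the last step had no common direction.

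Rescaling FPKM to a common sum moved the median of all genes by more than 0.1 log2 units. For 48 h against 6 h it was 0.18 at a common sum and 0.04 as deposited. Relative to that median, the graded early genes were at -2.42 at a common sum and at -2.41 as deposited. At 12 h the count of genes 2-fold or more lower was 82 at a common sum (5.71% of all genes), against 98 as deposited (7.10%).

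The classes by time of the 50% level were formed from these same values, so differences between their courses are in part set by the choice. The 101 genes that reached it by 12 h had medians of 77.4, 31.2, 13.3, 9.98 and 9.44 FPKM over the 5 times. The 54 genes that reached it at 24 h had medians of 80.9, 43.4, 23.6, 15.6 and 13.1 FPKM. Both sets of medians came down at each time, in ever smaller steps. The 10 genes that reached it at 36 h had medians of 48.4, 26.4, 24.9, 9.70 and 9.54 FPKM, with a plateau between 12 and 24 h. A place in this class takes more than 50% of the 6 h FPKM at both 12 and 24 h, which favours such a plateau. That smallest class had a median of 32.5 fragments at 6 h and 4 at 36 h, so its courses are the least precise.

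**Figure D1:**
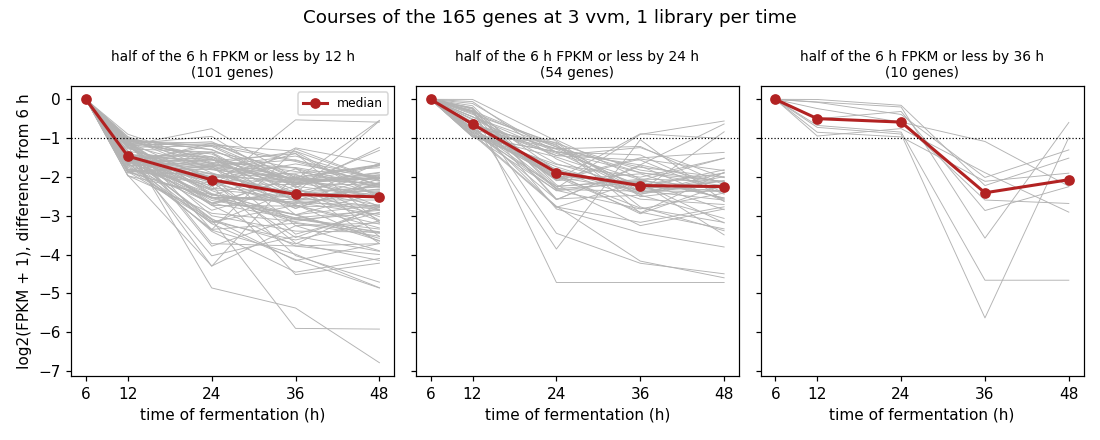
Difference of log2(FPKM + 1) from 6 h (vertical axis) by time at 3 vvm (horizontal axis, hours), with 1 grey line per gene, the class median in red and a dotted line 1 log2 unit down. The 3 panels hold the 101, 54 and 10 genes that first reached 50% of their 6 h FPKM at 12, 24 and 36 h, and the median of the last panel stays near its 12 h value at 24 h.

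Few courses were an even descent. Of the 165 genes, 53 were never higher than at the time before. The lowest value was at 48 h in 77 genes, at 36 h in 66 and at 24 h in 22. In 15 genes the 48 h level was 2-fold or more above the lowest of the 12, 24 and 36 h levels, which is called a rebound here.

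The choice of genes rested little on the 48 h library. Applied without it, the rule chose 142 genes, and all 142 were among the 165. For these genes 48 h is a measurement that did not choose them, and 0 of the 142 were higher there than at 6 h. Their median was 10.8 FPKM at 48 h, against 82.3 FPKM at 6 h, and 134 were 2-fold or more lower (94.4%, against 12.0% of all genes). The 6 h library still chose these genes for a high value there, so the difference from 6 h is in part set by the choice. Set against 36 h, 71 of the 142 were higher at 48 h, with a median log2 difference of 0.01.

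The share of the library taken by these genes was set in part by a pair of them. All 165 together took 3.03%, 1.31%, 0.829%, 0.561% and 0.972% of the fragments over the 5 times. The 2 with the most fragments at 48 h took 0.912%, 0.354%, 0.337%, 0.187% and 0.618%, and thus made up most of the 48 h share. The other 163 genes took 2.12%, 0.961%, 0.492%, 0.373% and 0.354%. At 48 h all 165 took 1.12% at 1.5 vvm, against 0.972% at 3 vvm. Of this, the 163 took 1.01% at 1.5 vvm, against 0.354% at 3 vvm, and the pair 0.111% at 1.5 vvm, against 0.618% at 3 vvm. The pair was picked for its fragments in the 48 h library at 3 vvm, which lowers the rest there, so the split is a description only.

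That pair belongs to the 6 genes with the highest FPKM at 6 h, and both dipped and came back. The gene on unitig_6 from 790287 to 791447 had 6638, 2970, 2500, 1239 and 4514 FPKM over the 5 times. The gene on unitig_2 from 1039427 to 1042335 had 1472, 445, 530, 351 and 1011 FPKM. Both were lowest at 36 h and back at 68.0% and 68.7% of the 6 h level at 48 h. Relative to depth, the first was 3.65-fold higher at 48 h than at 36 h (95% interval 3.55 to 3.76) and the second 2.88-fold (2.79 to 2.98). All such intervals are exact binomial ones (Clopper-Pearson) on fragments and cover counting error only.

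The other 4 of the 6 most abundant genes stayed well under their 6 h level. The gene on contig 1 from 4225157 to 4226651 had 2902, 746, 147, 303 and 193 FPKM over the 5 times, and was 15.2-fold lower at 48 h (14.2 to 16.3). The gene on unitig_2 from 2132141 to 2132831 had 2165, 702, 397, 239 and 197 FPKM, lower each time. Both lost further ground between 12 and 24 h. The gene on unitig_4 from 3545358 to 3546142 had 2060, 570, 621, 699 and 443 FPKM. The gene on unitig_1 from 2556900 to 2557376 had 1986, 841, 868, 654 and 431 FPKM. For these last 2 the main step lay between 6 and 12 h, with a plateau up to 24 or 36 h.

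The genes with the largest log2 difference between 48 and 6 h ended close to 0. The gene evm.model.unitig_1.1355 (unitig_1, 4608281 to 4609696) had 109, 47.2, 2.80, 1.66 and 0 FPKM over the 5 times. With 0 fragments at 48 h, against 374 at 6 h, it was at least 150-fold lower when 3 fragments are allowed for the count of 0 in that library, and the exact 95% interval reaches down to 122-fold. The gene evm.model.unitig_0.1763 (unitig_0, 6054054 to 6055810) had 66.9, 23.4, 6.92, 0.137 and 0.123 FPKM. It had 1 fragment at 48 h, against 462 at 6 h, or 557-fold lower (99.4 to 22035). On the log2 scale the largest step of both genes came after 12 h. At 48 h they had 4.27 and 14.4 FPKM at 1.5 vvm, from 19 and 130 fragments, against 0 and 0.123 FPKM at 3 vvm. With 1.57 FPKM taken off at 1.5 vvm, the log2 differences were 1.9 and 3.6, against 2.4 and 3.8 as deposited. The 19 fragments lie near the median of 13 for genes silent at 3 vvm.

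Of the other 3 genes in that set, 2 rest on enough fragments to follow. The gene on unitig_6 from 1988090 to 1989767 had 147, 46.4, 13.3, 8.32 and 4.13 FPKM and was 35.3-fold lower at 48 h than at 6 h (24.5 to 52.6). The gene on unitig_2 from 110886 to 112400 had 38.4, 12.7, 3.28, 1.25 and 0.358 FPKM, with 1 fragment at 48 h, against 88 at 6 h. It was 106-fold lower (18.5 to 4235), and both of these genes were lower at each time than before. The gene on unitig_3 from 2543356 to 2543547 spans 192 bases and was listed at 25.3 and 21.6 FPKM from 1 fragment each, then at 0, so its course cannot be read.

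Depth at 6 h limits a small part of the set in this way. At 6 h, 9 of the 165 genes had under 30 fragments and 4 had under 10, while the median was 276. Later medians at 3 vvm were lower, at 131, 71, 55 and 43 fragments from 12 to 48 h. Late values, lowest times and rebounds thus rest on fewer fragments than the 6 h level. In 7 genes at least 1 library at 3 vvm held 0 fragments. Of the 156 genes with 30 fragments or more at 6 h, 151 were 2-fold or more lower at 48 h.

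Genes that kept most of their level at 24 h form the late end of the set. The gene on unitig_3 from 183430 to 184866 had 235, 234, 211, 49.5 and 81.5 FPKM over the 5 times, with 1282, 1283, 1185, 282 and 538 fragments. It held 89.9% of its 6 h level at 24 h, and nearly all of its drop lay between 24 and 36 h. The gene on unitig_4 from 3918866 to 3921174 had 20.2, 17.0, 13.1, 8.99 and 3.49 FPKM, lower each time, with 64.9% left at 24 h. At 48 h the first was 1.90-fold higher at 1.5 vvm than at 3 vvm (1.71 to 2.11), and the second 7.14-fold, with 314 fragments at 1.5 vvm, against 40 at 3 vvm (5.13 to 10.2). The other 3 genes of this set had 5, 11 and 38 fragments at 6 h and 0, 3 and 5 at 36 h, which leaves their plateau and drop imprecise.

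Rebounds were seen in abundant and in sparse genes. Of the 5 largest by log2 difference, the gene on unitig_6 from 790287 is given above. The gene on unitig_1 from 4510857 to 4511828 had 18.9, 12.2, 3.08, 9.65 and 12.5 FPKM and was 4.07-fold higher at 48 h than at 24 h (2.35 to 7.49). The gene on unitig_5 from 330052 to 330563 had 21.3, 17.7, 2.71, 5.91 and 13.3 FPKM, with 2 fragments at 24 h, its lowest time. These 2 genes turned up from 24 h on, a time earlier than the abundant pair. The genes on unitig_6 from 1550375 to 1553853 and on unitig_0 from 3781245 to 3781745 had 0 fragments at 36 h and at most 5 in the other libraries at 3 vvm, so no fold is given. Of the 15 genes with a rebound, 4 had under 30 fragments at 6 h. The median of the 15 was 13 fragments at 24 h and 32 at 36 h.

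**Figure D2:**
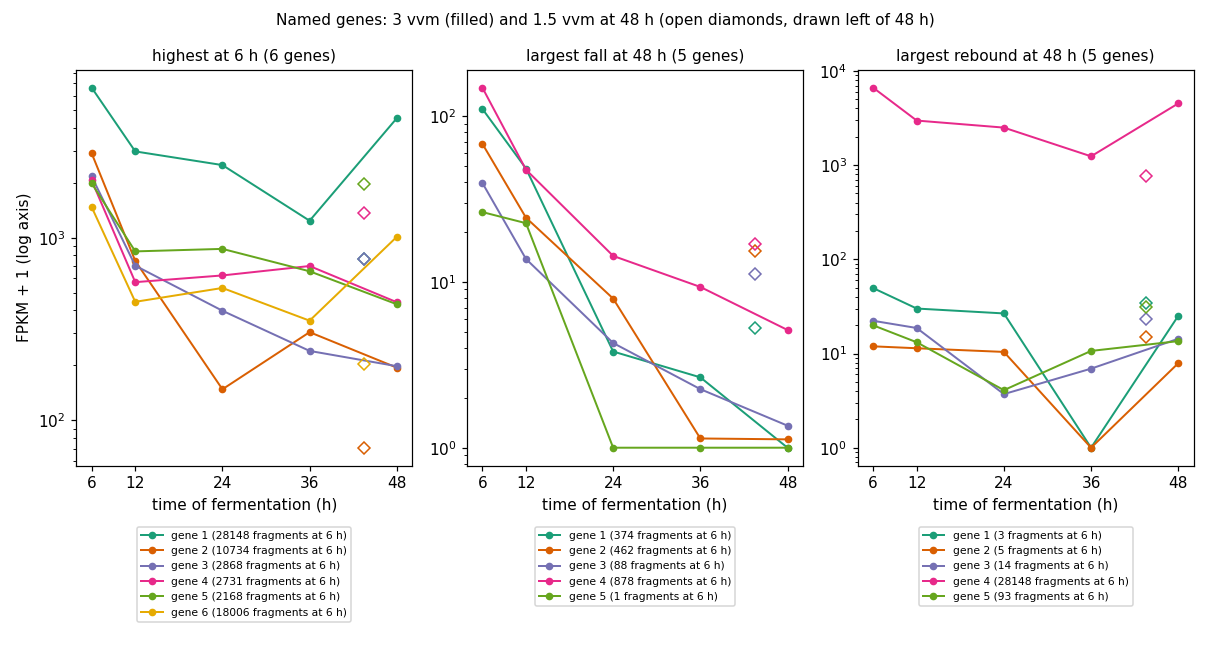
FPKM + 1 on a log axis (vertical) by time at 3 vvm (horizontal axis, hours) for the 6 genes highest at 6 h, the 5 with the largest difference at 48 h and the 5 with the largest rebound, with 1.5 vvm at 48 h as open diamonds drawn left of 48 h. Of the 6 abundant genes, 2 turn up at 48 h and have their 1.5 vvm value under the 48 h value, and 3 have it above.

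At the edges of the rule, values ran on without a gap. On the level threshold, 10.1 and 10.5 FPKM at 6 h were just inside, and 9.77 and 9.46 FPKM just outside. On the log2 range, 2.006 and 2.007 were just inside, and 1.997 and 1.996 just outside. On the first log2 step, 1.971 and 1.966 were just inside, and 2.001 and 2.005 just outside.

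The 1.5 vvm library was not used to choose any gene, and it shows how these genes stood at 48 h with less air. Their level there lay mostly between the late and the early level at 3 vvm. Of the 165 genes, 164 were listed with that library, at a median of 28.0 FPKM at 1.5 vvm, against 10.6 FPKM at 3 vvm. The median share of the 6 h level was 41.2% at 1.5 vvm (quartiles 26.7% and 67.9%), against 16.7% at 3 vvm (9.45% and 22.6%). In 125 of the 164 genes the 1.5 vvm level lay between those of 48 and 6 h at 3 vvm. The rule set 6 h as the highest time and asked for a wide range, so this span is wide by choice. No such share was computed over all genes, and the count is a description.

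At 1.5 vvm, 99 of 164 genes were 2-fold or more higher than at 3 vvm at 48 h (60.4%, against 22.1% of all genes), and 5 were 2-fold or more lower (3.05%, against 2.83% of all genes). The median log2 difference was 1.33, against 0.28 over all genes. With at least 10 FPKM required in the higher library, 84 of 127 were higher (66.1%, against 15.8% of all such genes). The 48 h library at 3 vvm had a part in the choice of genes through the range. Of the genes chosen without it, 83 of 141 were 2-fold or more higher at 1.5 vvm (58.9%) and 5 lower, with medians of 29.7 FPKM at 1.5 vvm, against 10.9 FPKM at 3 vvm.

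The scaling of the 1.5 vvm library moves the counts of all genes. As deposited, 2167 genes were higher and 277 lower. At a common sum these were 1679 and 462, the median of all genes was 0.04 in place of 0.28, and 87 of the graded early genes were higher and 7 lower. With 1.57 FPKM taken off each value at 1.5 vvm, 92 of 162 kept were higher (15.9% of all genes) and 9 lower (5.56% both of them and of all genes). Of the genes chosen without 48 h, 76 were then higher and 8 lower, and at a common sum 72 and 7. Relative to the median of all genes, the median log2 difference of the graded early genes was 1.05 as deposited, 1.06 at a common sum and 1.07 with that level taken off.

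Other times place the 1.5 vvm level in the course. Set against 24 h at 3 vvm, which is in the same deposited table, 68 of 164 genes were 2-fold or more higher at 1.5 vvm (22.7% of all genes) and 9 lower (1.50%). Set against 6 h, 93 were 2-fold or more lower at 1.5 vvm (4.20% of all genes) and 3 higher (28.2%). At a common sum 52 were higher (17.8% of all genes) and 14 lower (3.37%) than at 24 h. Relative to 6 h, 95 were then lower (4.96% of all genes). With 1.57 FPKM taken off, 63 were higher (16.1% of all genes) and 12 lower (3.38%) than at 24 h. In that setting 98 were lower than at 6 h (7.21% of all genes). On the log2 scale the 1.5 vvm level was nearest to the 6 h level in 43 genes, to 12 h in 51, to 24 h in 33, to 36 h in 23 and to 48 h in 14. It was above 6 h in 25 of 164 genes (15.2%, against 67.9% of all 9930 genes listed in both tables) and above 48 h in 150 (91.5%, against 66.8%). These comparisons share the 1.5 vvm library, and the rule used the others.

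**Figure D3:**
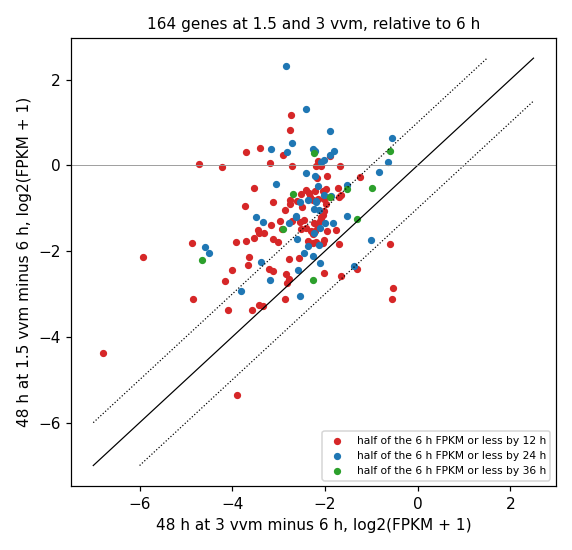
Difference from 6 h in log2(FPKM + 1) at 48 h and 1.5 vvm (vertical axis) against 48 h and 3 vvm (horizontal axis) for 164 genes, coloured by the time of the 50% level, with equal values on the solid line and 2-fold apart on the dotted lines. Of the points, 99 lie on or above the upper dotted line and 5 on or below the lower one, and both axes share the 6 h library.

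By class, 60 of 101 genes at 50% by 12 h were 2-fold or more higher at 1.5 vvm (59.4%), as were 34 of 53 at 50% by 24 h (64.2%) and 5 of 10 at 50% by 36 h. Over all genes, 22.1% were 2-fold or more higher and 2.83% lower. The 5 graded early genes that were 2-fold or more lower were all at 50% by 12 h. Of the 15 genes with a rebound, 4 were higher (26.7%, near the 22.1% of all genes) and 3 lower (20%) at 1.5 vvm. Of the 149 others, 95 were higher (63.8%) and 2 lower (1.34%). A rebound is defined by the same 48 h library, and this difference was not tested.

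The 5 genes with the largest log2 difference toward 1.5 vvm were near or above their 6 h level there. The gene evm.model.unitig_1.259 (unitig_1, 942525 to 943470) had 69.2, 43.4, 9.22, 15.3 and 8.79 FPKM over the 5 times at 3 vvm. At 48 h it had 347 FPKM and 1363 fragments at 1.5 vvm, against 8.79 FPKM and 31 fragments at 3 vvm, or 40.0-fold higher (28.0 to 59.1). Its 1.5 vvm value was 501% of its 6 h level. The gene evm.model.unitig_6.93 (unitig_6, 414785 to 415652) had 82.5, 38.2, 18.7, 4.12 and 2.19 FPKM at 3 vvm. At 48 h it had 84.6 FPKM at 1.5 vvm, against 2.19 FPKM at 3 vvm, or 38.2-fold higher (16.1 to 119), which is close to its 6 h level.

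The other 3 genes of this set had the same pattern at lower levels. The gene on unitig_0 from 1246291 to 1247703 had 31.0 FPKM at 1.5 vvm, against 0.758 FPKM at 3 vvm from 4 fragments, 40.0-fold higher (15.4 to 148), and had 31.8 FPKM at 6 h. The gene on contig 1 from 1540547 to 1542399 had 39.4 FPKM at 1.5 vvm, against 1.47 FPKM at 3 vvm, 26.6-fold higher (15.7 to 49.1), and had 31.4 FPKM at 6 h. The gene on contig 1 from 2907625 to 2908512 had 31.8 FPKM at 1.5 vvm, against 1.18 FPKM at 3 vvm, 26.9-fold higher (11.3 to 84.1), and had 13.5 FPKM at 6 h. In all, 25 of the 164 genes had their highest value of the 6 libraries at 1.5 vvm (15.2%), against 35.5% of the 9171 genes that reached 1 FPKM at 3 vvm. The rule chose the genes for a high 6 h value, which the 1.5 vvm value has to pass, so nothing is read from the lower share.

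The 5 genes with the most negative log2 difference include 3 of the 6 most abundant ones. The gene on unitig_6 from 790287 had 763 FPKM at 1.5 vvm, against 4514 FPKM at 3 vvm, 5.81-fold lower relative to depth (5.63 to 6.01). The gene on unitig_2 from 1039427 had 203 FPKM at 1.5 vvm, against 1011 FPKM at 3 vvm, 5.28-fold lower (5.08 to 5.49). These are the pair that dipped, and at 1.5 vvm both were under their lowest level at 3 vvm. The gene on contig 1 from 4225157 had 69.8 FPKM at 1.5 vvm, against 193 FPKM at 3 vvm, 2.92-fold lower (2.56 to 3.32).

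The 2 remaining genes of that set were of moderate level. The gene on unitig_6 from 2891848 to 2893278 had 84.0, 35.8, 16.7, 57.9 and 55.5 FPKM over the 5 times, a rebound, and had 22.7 FPKM at 1.5 vvm, 2.28-fold lower than at 3 vvm (1.91 to 2.74). The gene on unitig_4 from 1841855 to 1843563 had 60.7, 28.9, 24.2, 12.4 and 23.8 FPKM, and had 10.6 FPKM at 1.5 vvm, 2.21-fold lower (1.69 to 2.91). The other 3 abundant genes stood the opposite way. The genes on unitig_2 from 2132141, on unitig_4 from 3545358 and on unitig_1 from 2556900 had 767, 1364 and 1969 FPKM at 1.5 vvm, against 197, 443 and 431 FPKM at 3 vvm.

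**Figure D4:**
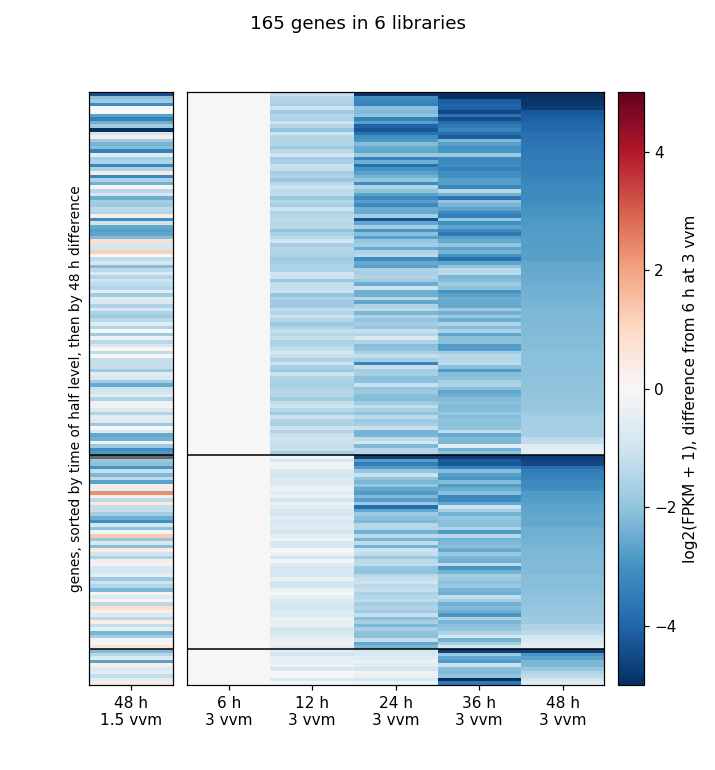
Difference of log2(FPKM + 1) from 6 h at 3 vvm for the 165 genes (rows) at 48 h and 1.5 vvm (left strip) and at the 5 times at 3 vvm (right block), with colours cut at 5 log2 units on each side and grey where a gene was not listed. Lines part the 101, 54 and 10 genes at the 50% level by 12, 24 and 36 h, and 150 of 164 rows are higher in the left strip than in the 48 h column.

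Other sets chosen with the same thresholds of level and range give the scale of the aeration counts. Against 60.4% of the graded early genes, 51.0% of 102 steep early genes were 2-fold or more higher at 1.5 vvm, with a median log2 difference of 1.01. Of 114 genes highest at 24 h, 30.7% were higher and 3.51% lower. Of 317 genes highest at 48 h, 5.99% were higher and 34.7% lower, with a median of -0.68. The rule of each set used 48 h at 3 vvm. Set against 24 h at 3 vvm instead, 41.5% of the graded and 39.8% of 103 steep early genes were higher. Differences between the sets were not tested.

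Both early sets lay apart in how far the 1.5 vvm level was from 6 h. At 1.5 vvm, 56.7% of the graded and 80.0% of 105 steep early genes were 2-fold or more lower than at 6 h, with median log2 differences of -1.24 and -2.44. The median levels at 1.5 vvm were 28.0 FPKM for the graded and 13.7 FPKM for the steep genes. Their medians at 6 h were 71.9 FPKM for the graded and 108 FPKM for the steep genes. The 6 h library chose both sets, so this gap is a description.

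**Figure D5:**
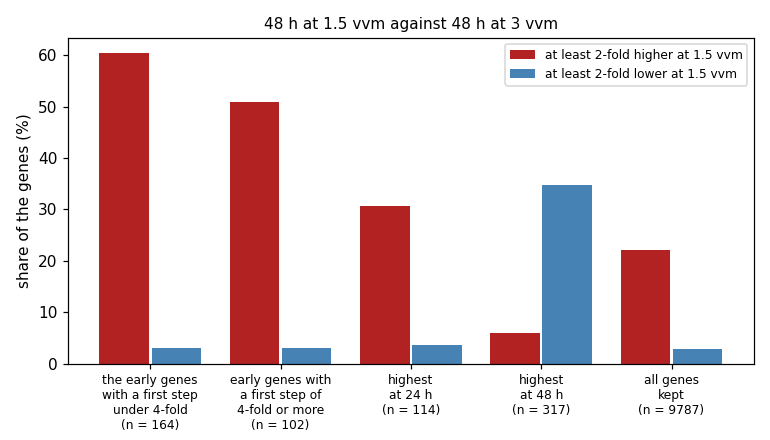
Share of genes in percent (vertical axis) 2-fold or more higher (red) or lower (blue) at 1.5 vvm than at 3 vvm at 48 h, for the graded early genes, the steep early genes, genes highest at 24 h, genes highest at 48 h and all genes kept (horizontal axis, with n). The red bar is 60.4% for the graded early genes and 5.99% for genes highest at 48 h, the one set of the 5 whose blue bar is the taller.

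Some features were not used by the rule. The listed span of the graded early genes, introns included, had a median of 1277 bases, against 1512 bases over all 9953 genes. The steep early genes had a median of 1270 bases, and genes highest at 24 and 48 h, chosen with the same thresholds, had 1529 and 1450 bases. Differences between these sets were not tested.

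The genes were spread over all 8 contigs of at least 100 genes. They made up between 1.33% of the genes on contig 1 (16 genes) and 2.20% on unitig_3 (25 genes). Within 100 kb of an end of these contigs, as far as listed genes reach, lay 17 of the 165 (10.3%, 95% interval 6.12 to 16.0), against 437 of all 9934 genes there (4.40%). The same share was 7.55% for the steep early genes, 8.77% for genes highest at 24 h and 3.14% for genes highest at 48 h. Neighbouring genes are not independent, so the interval is too narrow.

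Some of the genes were neighbours. Of the 165, 29 stood directly next to another of them, in 13 pairs and 1 run of 3, with a median gap of 1125 bases in the pairs. No like count was made for other sets of genes, so whether this is many or few was not tested. The run on unitig_6 from 1982604 to 1989767 ends with the gene from 1988090 given above. Its first gene (1982604 to 1983699) had 220, 77.4, 42.3, 25.2 and 20.8 FPKM over the 5 times. Its second gene (1984384 to 1985687) had 82.2, 41.5, 37.6, 11.2 and 6.96 FPKM, with a plateau between 12 and 24 h that the other 2 lack. At 48 h the 3 genes had 21.9, 16.4 and 15.9 FPKM at 1.5 vvm, against 20.8, 6.96 and 4.13 FPKM at 3 vvm, so the first was level between both air supplies and the others were 2.56-fold (1.69 to 3.96) and 3.73-fold higher (2.48 to 5.76).

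In 5 of the 13 pairs both genes were 2-fold or more higher at 1.5 vvm, and in 6 both reached the 50% level at the same time. Nothing is read from these counts, since 60.4% of the single genes were higher and 61.2% reached the 50% level by 12 h. One pair of both kinds, singled out after its values were seen, holds the abundant gene on unitig_1 from 2556900 and the gene from 2558459 to 2559709. That neighbour had 54.9, 24.1, 23.8, 21.1 and 12.1 FPKM over the 5 times, with the same early step and plateau as the first gene. At 48 h it had 54.6 FPKM at 1.5 vvm, against 12.1 FPKM at 3 vvm, and so both genes stood near their 6 h level at 1.5 vvm.

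Listed genes next to a graded early gene, but not among them, numbered 293. Of the 252 kept, 63 were 2-fold or more lower at 48 h relative to 6 h, against 12.0% of all genes, and 35 were higher (13.9%, against 17.5% of all genes). Their median log2 difference was -0.22, against 0.04 over all genes. Of the 293, 37.9% were highest at 6 h, against 31.0% of all genes, and 9 were steep early genes. These are descriptions over genes that share contigs and libraries.

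A trend over the 5 libraries at 3 vvm was also fitted to recovered fragments, as an alternative. By edgeR's quasi-likelihood test on log2 time, with Benjamini-Hochberg adjustment and a threshold of 0.05, 858 of 8987 genes fell (9.55%) and 874 rose. Of the 162 graded early genes tested, 144 fell and 0 rose, with a median slope of -0.88 log2 units per doubling of time. The rule used the same libraries, so nothing is read from this count. The spread in this fit is the deviation of libraries from a line, not a spread between replicates.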

How the data were processed

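RNA of frozen pellets was purified on columns and sequenced from Illumina TruSeq libraries, per the labels' protocols. TopHat2 2.0.9 and also Cufflinks 2.1.1 stand in the submitters' processing notes; the sources used here give neither genome build, annotation nor use of strand, so antisense transcription cannot be told apart. FPKM values are the authors', in 2 deposited tables per the file headers, joined by locus (24 h FPKM equal at 9930 of 9930 shared loci). The deposited count columns are a scaled signal, which the authors set to 1 total per table; divided by their smallest step they gave whole fragments (within 0.1) for at least 99.9% of values in each library. A further 4 value columns matched no label and were not used.

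Computed here (Python 3.11.15) were the rule, log2(FPKM + 1) differences among genes of at least 1 FPKM in either library, counts past 2-fold, and exact 95% intervals of fragment ratios relative to total fragments. This scale understates differences of low genes, and intervals treat fragments as independent, which PCR copies are not. Starts were raised by 1. The trend used edgeR 4.0.16 (R 4.3.3) with TMM over genes of 15 fragments or more in total. The rule and the trend were checked on simulated data. Named genes are the 6 highest at 6 h, the 5 extremes of the 48 h difference, of the share kept at 24 h, of the rebound and of either direction of the aeration difference, runs of 3, and the 2 genes on either side of each threshold. Alternatives were other pseudocounts, a common FPKM sum, another level threshold, libraries left out of the rule, 1.57 FPKM taken off at 1.5 vvm, 24 h as comparison, and, chosen after seeing the data, 30 fragments or more at 6 h and aeration counts without 48 h in the rule. The genes, sets and rules were chosen with earlier results of these data known.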

Additional observations from a re-analysis of the deposited data

How the results depend on the processing

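Of 45 counts recomputed on FPKM, 44 stayed within 1.5 times the reported ones. The exception was the count 2-fold or more lower at 1.5 vvm than at 3 vvm, which was 9 in place of 5 with 1.57 FPKM taken off, a step that lowers each value at 1.5 vvm. Some alternatives only drop a few genes, so their counts could hardly move. The limit of 1.5 times is wide, and 111 genes in place of 165 lie within it. The rule gave 173 genes with a pseudocount of 0.5 FPKM (164 shared with the 165), 111 with 5 FPKM (101 shared) and 143 at a common sum (137 shared). Leaving the 24, 36 or 48 h library out of the rule gave 158, 141 and 142. Genes 2-fold or more higher at 1.5 vvm than at 48 h and 3 vvm numbered 74 to 103 over the alternatives and 99 as reported. Some of these alternatives hold fewer genes. Set against 24 h at 3 vvm, a different comparison, the count was 68. Genes at the 50% level by 12 h were 83 at a common sum and 101 as deposited. Rebounds were 10 with a pseudocount of 5 FPKM and 15 as reported. For log2 differences of named genes, 171 of 192 recomputed values moved by no more than counting error, 21 moved further. The sign changed in 3 of the 192, all in the aeration difference of 2 genes under 2-fold apart. Of the differences of 2-fold or more, 0 reversed. Another pseudocount cannot change a sign, and the common sum moved values by much less than 2-fold. These counts are therefore not read as a check of direction. No paired analysis was possible because each group has 1 library, and for the same reason no replicate could be left out. Depth limits most the 9 genes of under 30 fragments at 6 h. Late values of the other genes also rest on fewer fragments, as the median over all 165 was 43 at 48 h and 3 vvm.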
